A study of Mus musculus with 22 samples.

Results

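The adhesion machinery of the blood vessel lining was followed in 6 genes through the 22 libraries of the study: the cadherin family members Cdh5 and Pcdh12, and the immunoglobulin superfamily members Pecam1, Mcam, Pvr and Icam2. These 6 genes, of 37991 in the deposited table, were chosen by symbol. Mcam, Pvr and Pcdh12 were picked because their levels changed with neural activity in these same libraries, so their values stand as a description and carry no test. Cdh5, Pecam1 and Icam2 were not said to be picked for a change and were tested, with p-values adjusted over all genes tested. All 6 genes were still chosen with earlier results of these data known, which that adjustment does not cover.

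The study sequenced RNA of brain endothelial cells, enriched from dissociated mouse brain tissue by fluorescence-activated sorting for CD31, the protein that Pecam1 encodes. It asked how these cells respond when glutamatergic (excitatory) neurons are made more or less active, or when the barrel cortex receives whisker input. The activation group (n = 4) was labelled C57BL/6 CamKIIa-tTA; TRE-hM3Dq and received CNO, the drug that switches on the excitatory designer receptor hM3Dq, and the activation control group (n = 4) received CNO too. The silencing group (n = 4) was labelled C57BL/6 CamKIIa-tTA; TRE-hM4Di, whose receptor inhibits neurons, and received CNO, as did the silencing control group (n = 4). In both experiments the receptor was placed in neurons by the CamKIIa promoter through the tTA and TRE elements, and cortex and hippocampus were taken 3 hours after CNO. The controls are described as littermates without the receptor, although controls and treated mice carry the same genotype in their labels. For whisker input, C57BL/6 wild-type mice with whiskers explored an enriched environment in the dark (whisker-plus, n = 3), and the comparison mice had no whiskers and an empty cage (whisker-minus, n = 3). Each whisker library pooled 5 pairs of barrel cortices, and whiskers and surroundings differ together between these groups, so their effects cannot be told apart. The ages of the mice are not given in the labels.

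Cadherins are calcium-dependent adhesion proteins that bind the same cadherin on the next cell. Cdh5 (VE-cadherin) forms the adherens junction of endothelium and ties it to actin through catenins, while Pcdh12 (VE-cadherin-2) is a protocadherin of endothelium that lacks the catenin-binding tail. Immunoglobulin superfamily molecules work beside them: Pecam1 binds itself along the lateral border, Icam2 binds the leukocyte integrin LFA-1, Pvr (CD155, the poliovirus receptor in human) binds nectin-3 and the lymphocyte receptors CD226, TIGIT and CD96, and Mcam (CD146) binds laminin-411 and also marks pericytes and smooth muscle.

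Mcam had the largest log2 fold change of the 6 genes under activation, and it was the only one with a promoter entry in the reference table (1 of 6 matched), so its promoter is shown here. The 250 bases before its start on the + strand, from RefSeq on build GRCm38.p6 at chr9:44134408-44134657, read as follows, with a match to the cAMP response element in capitals.

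Mcam promoter: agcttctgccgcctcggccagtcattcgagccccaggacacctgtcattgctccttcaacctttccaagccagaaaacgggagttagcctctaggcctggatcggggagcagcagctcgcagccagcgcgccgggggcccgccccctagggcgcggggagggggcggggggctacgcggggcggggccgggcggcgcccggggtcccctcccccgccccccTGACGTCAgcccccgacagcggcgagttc

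The capitals mark TGACGTCA, the palindromic consensus of the element that the CREB family binds. It lay 21 bases from the start, in a window of 73.6% G and C. Of 32851 promoter windows of the same length, 1.55% held TGACGTCA on either strand. The same window held the GC box letters GGGCGG at 5 places (32.7% of promoters held at least one) and the ETS core GGAA at 1 place (93.5% of promoters), with no overlap with TGACGTCA. The E box CACGTG (6.02% of promoters) and the AP-1 letters TGACTCA (4.46%) had no match in it. These matches describe letters and were not tested for binding.

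Libraries of the activation experiment held 18387666 to 25163689 reads, those of the silencing experiment 25897142 to 32957916 and those of the whisker experiment 44187482 to 57673270. Each of the 6 genes had at least 99 reads in every library. The libraries carried endothelial RNA: the 10 endothelial markers, Cldn5 and Flt1 among them, summed to 17570 to 24700 CPM, the deposited unit, in which each library's reads are scaled to 1 common total. The sort also takes CD31-bearing blood cells, yet the 6 platelet markers summed to 4.33 to 10.5 CPM and the 6 leukocyte markers to 1.14 to 5.30 CPM. Pericyte markers summed to 573 to 2802 CPM. Silencing control 2 stood apart from the other silencing controls: its Fkbp5, a glucocorticoid-induced gene, read 469 CPM, where the silencing libraries held 248 to 342 CPM and the other silencing controls 10.3 to 21.6 CPM. In bulk RNA, fewer cells of a type and less RNA per cell cannot be told apart.

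Levels per kilobase of exon separated the genes into tiers in the 11 control libraries (both control groups and whisker-minus). Pecam1, with a median of 310 CPM per kb (range 284 to 352), and Cdh5, with a median of 288 (range 228 to 345), overlapped each other at the top. Icam2 followed at 93.6 CPM per kb (range 56.0 to 119), clear of the genes above and below it. Mcam, with a median of 19.2 CPM per kb (range 11.8 to 36.1), overlapped Pvr, with a median of 12.5 (range 10.4 to 18.7). Pcdh12 was lowest, at 2.53 CPM per kb (range 0.933 to 3.68). The more abundant genes mostly varied least over all 22 libraries. The highest library held 1.24 times the CPM of the lowest for Pecam1, 1.51 times for Cdh5, 2.5 times for Icam2, 4.66 times for Pvr, 5.28 times for Mcam and 7.96 times for Pcdh12.

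**Figure D1:**
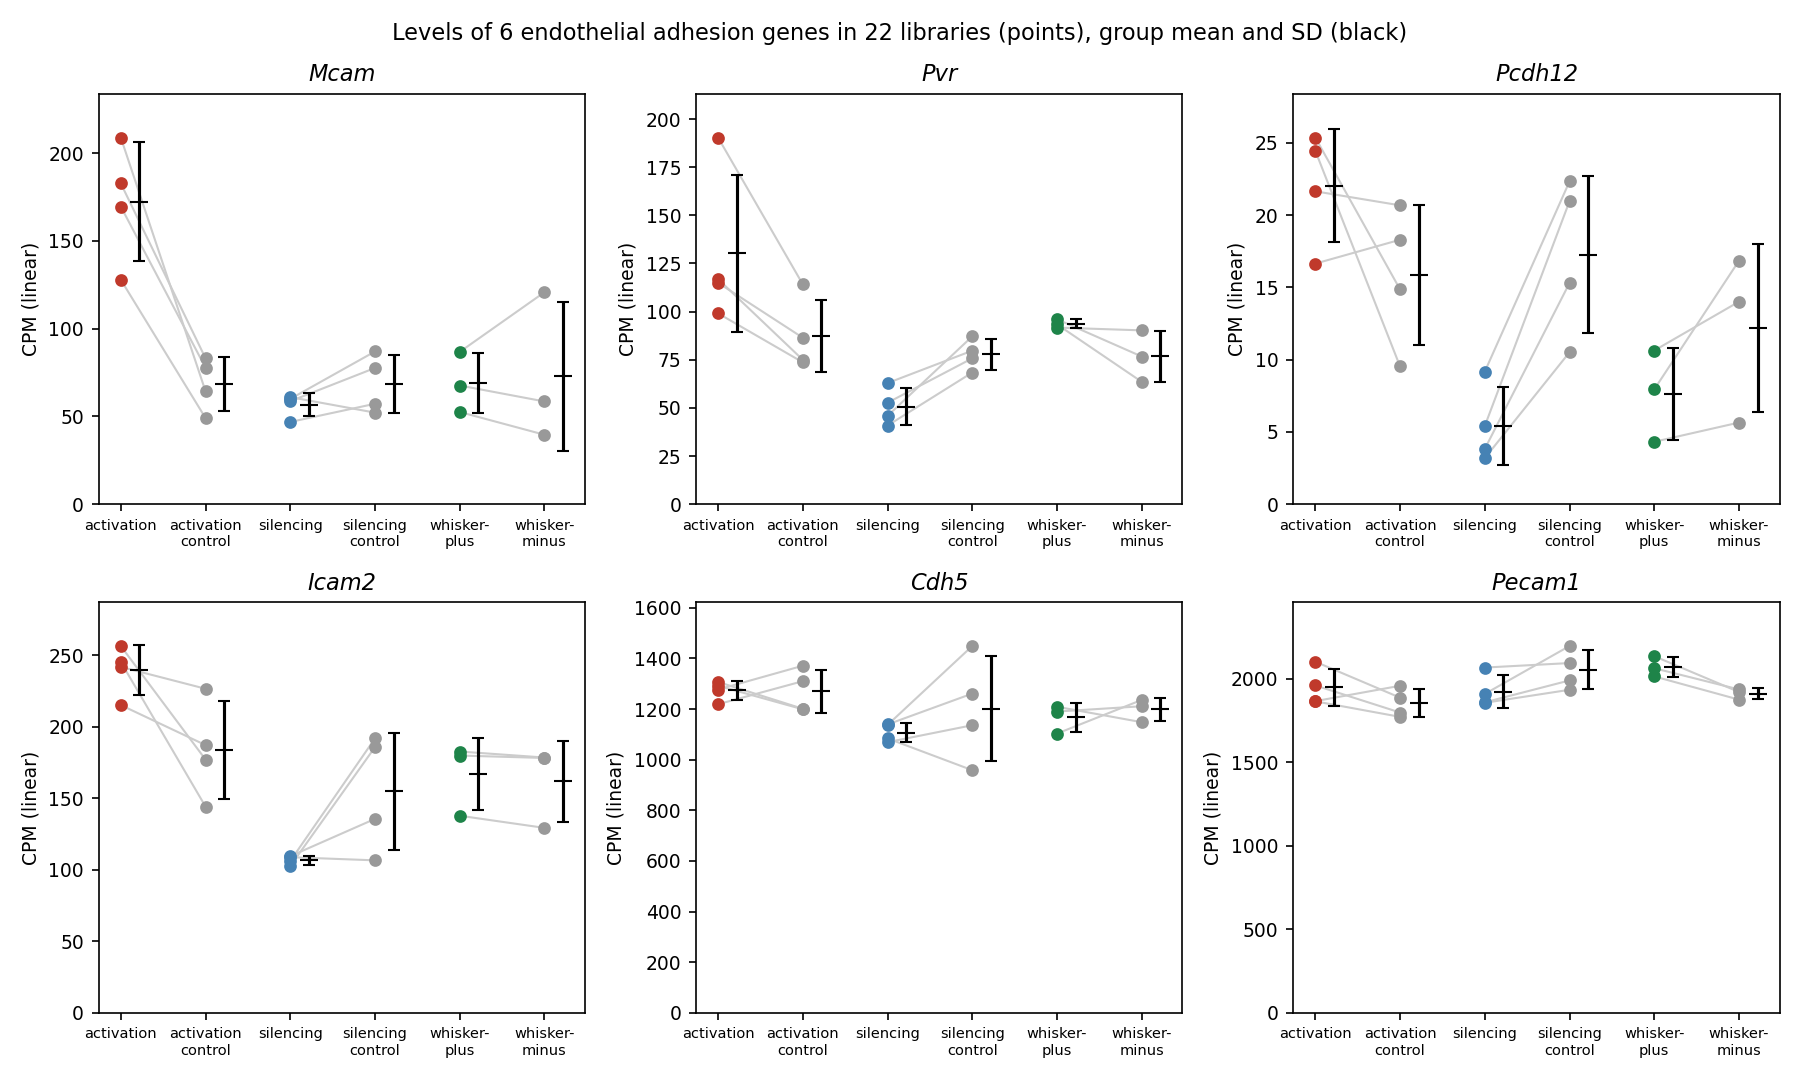
Level of each gene in CPM (linear axis from 0) in every library of the 6 groups, treated groups left of their controls; black bars give the group mean and SD, and grey lines join libraries that share a replicate number. Mcam in the activation libraries (127.9 to 208.9 CPM) lies clear of its controls. Pcdh12 in the silencing libraries (3.19 to 9.17 CPM) lies below its controls, the lowest of which read 10.5 CPM. Cdh5 and Pecam1 are nearly level.

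Neither core junction gene differed detectably from its controls in any comparison. Cdh5 (ENSMUSG00000031871) read 1219, 1277, 1307 and 1292 CPM in the activation libraries, against 1310, 1371, 1201 and 1199 CPM in the activation controls. In the silencing experiment it read 1069, 1084, 1137 and 1139 CPM in the silencing libraries, against 1136, 958.4, 1449 and 1261 CPM in the silencing controls. The groups overlapped in both experiments, with an SD of 36.2 CPM in the silencing libraries, against 207 CPM in the silencing controls. Whisker-plus libraries held 1103, 1209 and 1190 CPM of Cdh5, against 1236, 1148 and 1211 CPM in whisker-minus libraries, again with overlap. The log2 fold changes of Cdh5 on log2(CPM + 1) were 0.01 ± 0.10 (SE) for activation (limma adjusted p = 0.991), -0.10 ± 0.14 for silencing (adjusted p = 0.745) and -0.04 ± 0.09 for whisker (adjusted p = 0.910). The whisker value turned to 0.03 with TMM scaling, which corrects for a few genes taking many of the reads.

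Pecam1 (ENSMUSG00000020717) is also the gene behind the sort, since cells were taken for its product. It read 2101, 1865, 1864 and 1959 CPM in the activation libraries, against 1886, 1957, 1771 and 1797 CPM in the activation controls (log2 fold change 0.07 ± 0.11, limma adjusted p = 0.859). In the silencing libraries it read 1858, 1855, 1908 and 2066 CPM, against 1989, 1933, 2195 and 2093 CPM in the silencing controls (log2 fold change -0.09 ± 0.12, adjusted p = 0.722). The groups overlapped in both experiments. Whisker-plus libraries held 2062, 2134 and 2013 CPM, against 1935, 1920 and 1874 CPM in whisker-minus libraries. Every whisker-plus library lay above every whisker-minus library, which was so for 5.65% of all genes tested in that comparison, and the log2 fold change was 0.12 ± 0.09 (adjusted p = 0.665). In the authors' deposited table Pecam1 was marked as up in whisker-plus, a mark given to 3.35% of the genes with a value there.

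Icam2 (ENSMUSG00000001029), a constitutive leukocyte ligand of resting endothelium, lay above its controls with activation and below them with silencing; neither effect passed on its own, and the difference between them did. Activation libraries held 215.2, 241.9, 245.4 and 256.5 CPM, against 187.2, 226.6, 144.2 and 177.1 CPM in the activation controls. All 4 same-numbered pairs were higher under activation, as they were for 13.1% of all genes tested, but activation library 1 lay below activation control 2. The log2 fold change was 0.40 ± 0.13 and did not pass (limma adjusted p = 0.265), in a comparison in which 0.140% of 12872 genes passed.

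Silencing libraries held 109.5, 108.8, 106.1 and 102.6 CPM of Icam2, against 135.6, 106.6, 191.9 and 185.8 CPM in the silencing controls. The silencing libraries lay close together, the controls were spread widely, and silencing control 2 sat among the silencing libraries. The log2 fold change was -0.49 ± 0.17 (limma adjusted p = 0.205), where 0.177% of 13017 genes passed. Without silencing control 2 it was -0.66 (adjusted p = 0.00804), and with the replicate number as a block (so that same-numbered libraries are compared) and without that pair -0.67 (adjusted p = 0.00496), but that same omission brought the genes called to 1504 and 2399. Without silencing control 2, the controls held only 10.3 to 21.6 CPM of Fkbp5, against 248 to 342 CPM in the silencing libraries. Silencing and high Fkbp5 then cannot be told apart, and the part of the latter in the Icam2 values was not tested. Icam2 read 182.7, 179.9 and 137.8 CPM in whisker-plus libraries, against 178.5, 178.2 and 129.3 CPM in whisker-minus libraries, and its log2 fold change was 0.05 ± 0.16 (adjusted p = 0.943).

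The activation effect minus the silencing effect, each against its own controls, was 0.89 ± 0.22 for Icam2 (limma adjusted p = 0.0472), where 2.31% of 13464 genes passed and 1.46% passed with a positive difference. The value stayed positive in all 31 alternatives, between 0.77 and 1.07, but passed in only 9 of them. It missed the threshold with no filter (adjusted p = 0.0991), with TMM scaling (adjusted p = 0.0706) and with edgeR (adjusted p = 0.0693). Leaving out 1 library gave adjusted p-values up to 0.108. The same difference was 0.11 ± 0.16 for Cdh5 (adjusted p = 0.807) and 0.17 ± 0.14 for Pecam1 (adjusted p = 0.611).

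**Figure D2:**
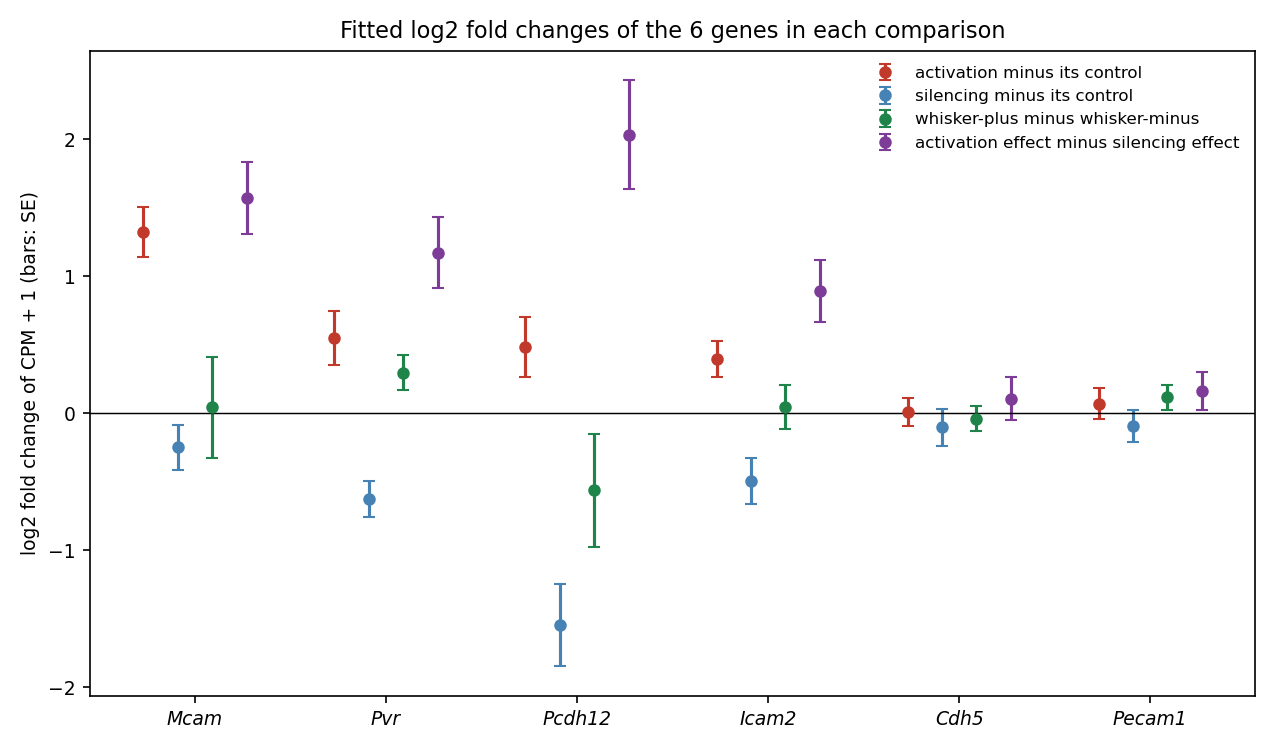
Fitted log2 fold change of CPM + 1 (points) with its SE (bars) for each gene in the activation, silencing and whisker comparisons, and for the activation effect minus the silencing effect. Mcam is highest under activation (1.32), Pcdh12 lowest under silencing (-1.55), and Cdh5 and Pecam1 lie near 0 throughout.

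Mcam (ENSMUSG00000032135), the receptor for laminin-411 and a partner of VEGFR2, was about 2.5-fold higher with activation and close to its controls elsewhere. Activation libraries held 182.8, 169.6, 127.9 and 208.9 CPM, against 83.15, 77.77, 49.11 and 64.38 CPM in the activation controls. The lowest activation library lay above the highest control, as it did for 3.65% of all genes tested, and the log2 fold change was 1.32 ± 0.18. The 4 same-numbered pairs differed by 1.11 to 1.68 on the log2 scale. Silencing libraries held 60.02, 58.69, 61.02 and 46.88 CPM, against 87.03, 77.64, 52.19 and 57.24 CPM in the silencing controls. These groups overlapped, with 3 of 4 pairs lower under silencing, and the log2 fold change was -0.25 ± 0.16.

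In the whisker experiment Mcam read 52.56, 86.79 and 67.64 CPM in whisker-plus libraries, against 39.59, 120.8 and 58.55 CPM in whisker-minus libraries. Whisker-minus held both the lowest and the highest library, and the log2 fold change was 0.04 ± 0.37, which became -0.31 without whisker-minus 1 and 0.48 without whisker-minus 2. Because Mcam also marks mural cells, the 6 smooth muscle markers, Acta2 and Myh11 among them, are given beside it. They summed to 365.1, 206.4, 161.8 and 652.1 CPM in the activation libraries, against 377.9, 133.5, 195.6 and 245.3 CPM in the activation controls. The sums overlapped between the groups, with all 5 tested markers above 0 (median log2 fold change 0.36) and none called by limma, with or without the replicate block. Activation library 4 held both the most Mcam (208.9 CPM) and the highest smooth muscle sum of that experiment. In whisker-minus 2, where Mcam was 120.8 CPM, the smooth muscle sum was 1392 CPM, the highest of all libraries, and the part of these cells in Mcam levels was not tested. The 10 pericyte markers summed to 786 to 2168 CPM in the activation libraries, against 801 to 2280 CPM in the activation controls.

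**Figure D3:**
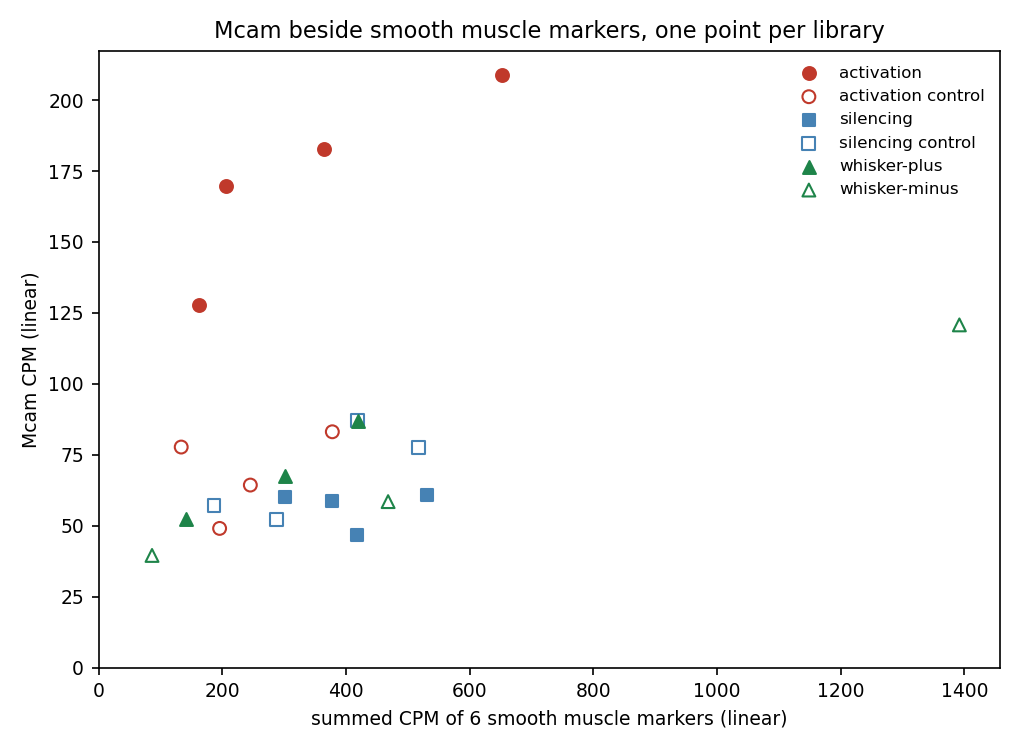
Mcam in CPM (vertical, linear) against the summed CPM of 6 smooth muscle markers (horizontal, linear), one point per library, filled for treated groups and open for their controls. The 4 activation libraries sit above all others at Mcam levels of 127.9 CPM and more, across smooth muscle sums of 161.8 to 652.1 CPM, and whisker-minus 2 sits at the far right.

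Pvr (ENSMUSG00000040511), the nectin-like receptor that lymphocytes read through CD226 and TIGIT, was higher with activation and in whisker-plus libraries, and lower with silencing. Activation libraries held 116.9, 190.4, 99.13 and 115.0 CPM, against 75.0, 114.2, 73.69 and 86.47 CPM in the activation controls. All 4 pairs were higher, as they were for 13.1% of all genes tested, here by 0.41 to 0.73 on the log2 scale. The groups still overlapped because replicate 2 was the highest library of both groups. The log2 fold change was 0.55 ± 0.20. Silencing libraries held 52.7, 45.89, 40.85 and 62.9 CPM, against 75.76, 87.16, 68.39 and 79.74 CPM in the silencing controls. Every silencing library lay below every silencing control, as for 7.30% of all genes tested, with a log2 fold change of -0.62 ± 0.13. Whisker-plus libraries held 91.73, 96.07 and 93.41 CPM, against 90.28, 76.7 and 63.56 CPM in whisker-minus libraries, a log2 fold change of 0.30 ± 0.12. Whisker-plus did not overlap whisker-minus (5.65% of all genes), and all 3 pairs were higher, as for 15.4% of all genes, but pair 1 differed by only 0.02 on the log2 scale and pair 3 by 0.55.

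Pcdh12 (ENSMUSG00000024440), the least abundant of the 6, was 0.31 of its control mean with silencing. Silencing libraries held 3.19, 9.17, 5.41 and 3.82 CPM, against 10.5, 22.3, 20.9 and 15.3 CPM in the silencing controls. The groups did not overlap, as for 7.30% of all genes tested, although silencing library 2, the highest, reached close to control 1, the lowest. All 4 pairs were lower, by -1.78 to -1.20 on the log2 scale, as they were for 19.8% of all genes tested, and the log2 fold change was -1.55 ± 0.30. Activation libraries held 21.6, 16.6, 24.4 and 25.4 CPM, against 20.7, 18.3, 9.54 and 14.9 CPM in the activation controls. The groups overlapped and the log2 fold change of 0.48 ± 0.22 came mainly from pairs 3 and 4 (1.27 and 0.73), since pair 1 stood at 0.06 and pair 2 at -0.13. Without pair 3 it was 0.22. Whisker-plus libraries held 7.94, 10.6 and 4.32 CPM, against 16.8, 14.0 and 5.65 CPM in whisker-minus libraries, with overlap and a log2 fold change of -0.56 ± 0.41. All 3 whisker pairs were lower in whisker-plus, which was so for 30.9% of all genes tested.

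Endothelial markers are set beside the values of Pcdh12, Pvr and Icam2 under silencing. Of the 10, 9 lay below 0 in that comparison (median log2 fold change -0.15, against -0.07 over all genes tested, none called by limma, with or without the block). They summed to 17570, 18970, 19810 and 19800 CPM in the silencing libraries, against 21180, 19360, 24700 and 22860 CPM in the silencing controls, where silencing control 2 alone lay within the range of the silencing libraries. Under activation 8 of the 10 lay below 0 (median -0.09), with sums of 20080 to 22930 CPM in the activation libraries, against 22330 to 24370 CPM in the activation controls. Their part in the values of these genes was not tested.

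The activation effect minus the silencing effect was 2.03 ± 0.40 for Pcdh12, 1.57 ± 0.26 for Mcam and 1.17 ± 0.26 for Pvr. These differences were made up differently: silencing gave most of it for Pcdh12, activation most of it for Mcam, and both about equally for Pvr. Of the 6 genes, only Pvr had every activation pair higher and every silencing pair lower, a pattern that 3.88% of all genes tested showed. All 6 had a fitted activation effect above 0 and a fitted silencing effect below 0, which was so for 33.9% of the 12667 genes in both fits. That count carries no weight, since Mcam, Pvr and Pcdh12 were picked for changes with activity. The activation values of Cdh5 (0.01 ± 0.10) and Pecam1 (0.07 ± 0.11) were smaller than their SEs, and that of Cdh5 turned negative without any of 4 single libraries. In the authors' deposited table the log2 fold changes for activation, silencing and whisker were 0.35, -0.99 and -0.30 for Pcdh12 and 1.04, -0.17 and 0.01 for Mcam. That table gave 0.41, -0.47 and 0.31 for Pvr and 0.32, -0.38 and 0.10 for Icam2. The authors' fit and cutoff were not those used here. Their table marked 624 genes as up in activation, where limma called 18 genes in either direction. Pvr, Pcdh12 and Icam2 were marked there as both up in activation and down in silencing, as 0.483% of genes with values in both were, Pvr was also marked as up in whisker-plus, and Mcam was marked as up in activation, as 2.64% of genes with a value there were, and not as down in silencing.

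**Figure D4:**
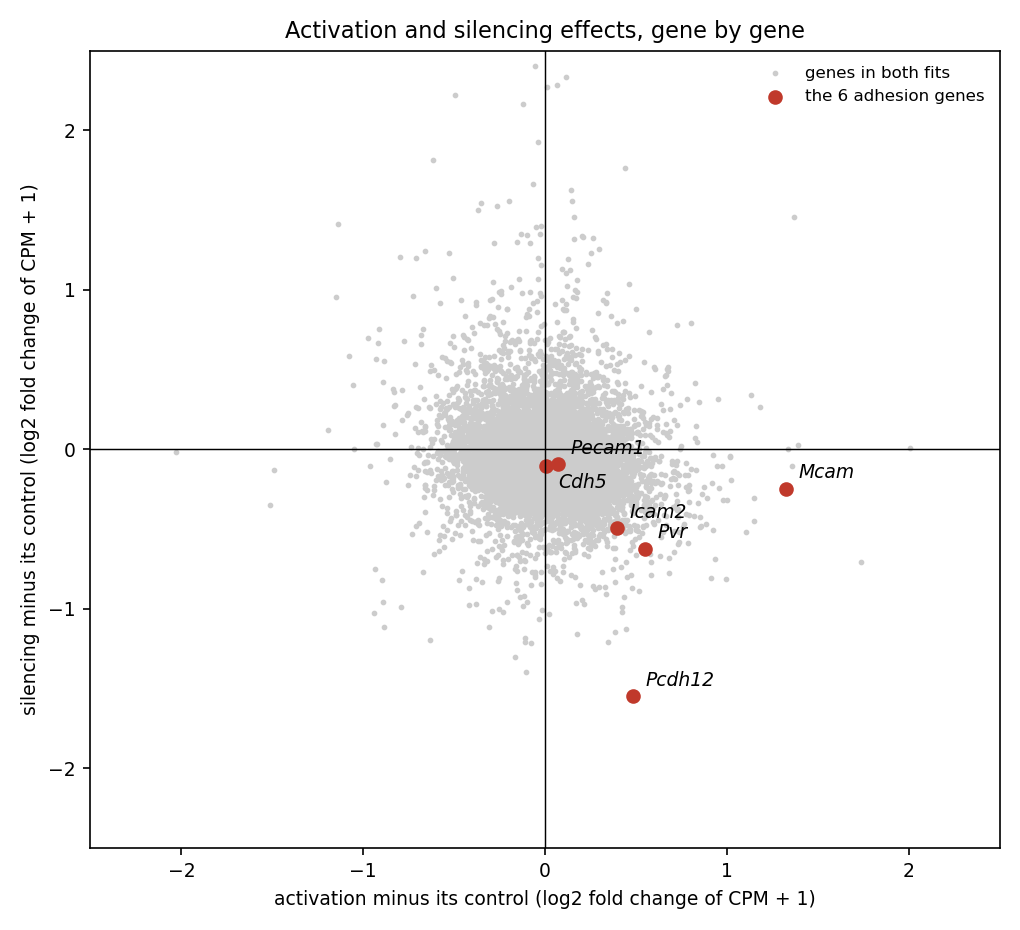
Fitted log2 fold change for silencing (vertical) against activation (horizontal), each against its own controls, for all genes in both fits (grey) and the 6 adhesion genes (red). Pcdh12, Mcam, Pvr and Icam2 spread into the lower right, with Cdh5 and Pecam1 near the centre; 2 genes lie outside the axes.

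Related genes were read in 8 lists of 128 genes: other cadherins and protocadherins, adherens junction partners, nectins and Cadms, other immunoglobulin adhesion molecules, ligands and counter-receptors, proteases with phosphatases and kinases that act on these proteins, and endothelial transcription factors. Of 103 tested in the activation comparison, 1 passed with limma (0.971%), or 3 with the replicate number as a block (2.91%), 2 higher and 1 lower, where 1.82% of all genes passed, 1.03% higher and 0.792% lower. Fyn, a Src-family kinase that works at junctions, rose to 198 ± 23.7 CPM in the activation libraries, against 111 ± 19.5 CPM in the activation controls (SD, n = 4 each), a log2 fold change of 0.84 ± 0.14 (limma adjusted p = 0.0495). It missed the threshold when any 1 of the 8 libraries was left out (adjusted p 0.0605 to 0.197). With the block Adam15, a membrane protease of endothelium, rose to 834 ± 42.1 CPM in the activation libraries, against 545 ± 60.4 CPM in the activation controls (log2 fold change 0.62, adjusted p = 0.0218). With the block the giant protocadherin Fat4 fell to 106 ± 18.4 CPM in the activation libraries, against 167 ± 26.3 CPM in the activation controls (adjusted p = 0.0455), and it missed the threshold with TMM scaling and the block (adjusted p = 0.0562). Without 1 pair, Adam15 missed the threshold in all 4 such fits with the block and Fat4 in 3.

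The partners of the 6 genes did not pass with activation. The adherens junction list, which holds the catenins and the VE-cadherin phosphatase Ptprb, had a median log2 fold change of 0.11 over 15 genes, against -0.01 over all genes tested, with 9 above 0. The catenin genes Ctnnb1 and Ctnnd1 read -0.07 ± 0.13 and -0.05 ± 0.09, while Ctnna1 and the plakoglobin gene Jup read 0.20 ± 0.10 and 0.34 ± 0.15. Lama4, the chain of laminin-411 that Mcam binds, read -0.02 ± 0.15, and Pvrl3, the nectin-3 partner of Pvr, 0.19 ± 0.17. Creb1, a gene of the CREB family, read 0.05 ± 0.15.

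In the silencing comparison, 0 of 105 tested genes of these lists passed with limma, 15 had an unadjusted p under 0.05 (14.3%, where 16.1% of all genes did), edgeR called 0 (0.184% of all genes) and DESeq2 called 5 (4.76%, where it called 3.55% of all genes). With the replicate block 2 passed (1.90%, where 1.04% of all genes passed and 0.438% fell), both of them transcription factors of endothelium that fell. Sox18, a regulator of vessel development, fell to 169 ± 27.4 CPM in the silencing libraries, against 259.6 ± 39.5 CPM in the silencing controls (adjusted p = 0.0464). Etv6, an ETS-family repressor, fell to 38.8 ± 1.76 CPM in the silencing libraries, against 56.8 ± 7.34 CPM in the silencing controls (adjusted p = 0.0489). Both missed the threshold with TMM scaling and the block (adjusted p = 0.0572 and 0.0566) and passed in only 1 of the 4 fits with the block that left out a pair, the one without pair 2. The list of 23 transcription factors had a median of -0.11, against -0.07 over all genes tested, with 16 below 0. Among those that did not pass, Ets1 read -0.66 ± 0.16 (adjusted p = 0.126) and Erg, the ETS factor known to drive Cdh5, 0.06 ± 0.07. Lama4 read -1.01 ± 0.24 (adjusted p = 0.118), at 43.6 CPM in the silencing libraries against 93.6 CPM in the silencing controls. All 10 pericyte markers lay above 0 in this comparison (median 0.34, none called by limma, with or without the block), with sums of 1041 to 2471 CPM in the silencing libraries, against 869.5 to 2802 CPM in the silencing controls, and 9 of 10 endothelial markers lay below 0, as given above. The part of either in these values was not tested.

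The activation effect minus the silencing effect passed with limma for 1 of 107 tested genes of these lists (0.935%), or for 5 with the replicate block (4.67%, where 6.35% of all genes passed), all 5 positive, as for 4.02% of all genes. Adam15 had a difference of 0.82 ± 0.19 (adjusted p = 0.0372), which missed the threshold with TMM scaling (adjusted p = 0.0505) and in 10 of 16 fits that left out a library. With the block, the differences of Jup, the junction protein plakoglobin (0.84), Fyn (0.79), Etv6 (0.71) and the integrin subunit Itgb1 (0.47) also passed, Itgb1 missing the threshold with TMM scaling and the block (adjusted p = 0.0688). In the 8 fits with the block that left out a pair, Fyn passed in 6, Adam15 and Etv6 in 4, Jup in 3 and Itgb1 in 2.

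In the whisker comparison limma called 0 of 12776 genes (0%), with 1656 (12.96%) at an unadjusted p under 0.05, while edgeR called 0 and DESeq2 406 (3.18%). Of the 105 list genes tested limma called 0, with 19 (18.1%) at an unadjusted p under 0.05, edgeR 0 and DESeq2 8 (7.62%). With the replicate block 21 list genes passed (20.0%, where 8.59% of all genes passed). Of the 21, 11 were higher in whisker-plus and 10 lower, where 2.99% of all genes passed as higher and 5.60% as lower. The lists were chosen with earlier results of these data known, so these shares describe and carry no test. Over all genes, 382 rose and 715 fell with the block, but 488 and 360 with TMM scaling added. With the block, Fyn rose to 170.1 ± 16.01 CPM in whisker-plus libraries, against 104.7 ± 6.75 CPM in whisker-minus libraries (adjusted p = 0.00195). Adam15 rose to 632 ± 54.0 CPM in whisker-plus libraries, against 457 ± 41.8 CPM in whisker-minus libraries (adjusted p = 0.00273 with the block). Junction partners rose with the block as well: the small GTPases Rap1a (log2 fold change 0.29) and Rap1b (0.31), the Rap1 effector Rasip1 (0.24) and the catenin gene Ctnna1 (0.23). The other list genes that rose with the block were the immunoglobulin molecules Vcam1 (0.50), F11r (0.24) and L1cam (0.67), the integrin subunit Itgb1 (0.29) and the phosphatase Ptprj (0.29). Erythroid, leukocyte, and microglia and macrophage markers also lay above 0 in this comparison. Of 2 tested platelet markers, 1 lay above 0 and 1 below. The 3 erythroid markers had a median of 0.44, with 2 called with the block, and summed to 567 to 1310 CPM in whisker-plus libraries, against 538 to 687 CPM in whisker-minus libraries. All 7 tested microglia and macrophage markers lay above 0 (median 0.31, none called by limma, with or without the block), with sums of 53.6 to 113.6 CPM in whisker-plus libraries, against 56.5 to 67.4 CPM in whisker-minus libraries. Their part in these values was not tested.

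The list genes that fell in whisker-plus with the block were mostly cadherins and neural adhesion molecules: Pcdh10 (-1.51), Ncam1 (-1.31), Cdh20 (-1.09), Cdh10 (-0.97), Fat1 (-0.58), Fat4 (-0.55) and Cadm1 (-0.51), with Mmp14 (-0.72), Src (-0.49) and Ets2 (-0.24). All 10 tested other cadherins lay below 0, with a median of -0.28 against -0.07 over all genes tested. Cdh10 and Cdh20 were scarce, at 0.890 and 1.10 CPM in whisker-plus libraries against 2.81 and 3.97 CPM in whisker-minus libraries. Astrocyte markers moved with them. The 6 astrocyte markers, Aqp4 and Gfap among them, summed to 280.7, 305.5 and 304.3 CPM in whisker-plus libraries, against 280.9, 1080 and 959 CPM in whisker-minus libraries, and 5 of 6 fell with the block. Markers of other cells lay below 0 as well: all 6 smooth muscle markers (median -0.53) and all 3 tested oligodendrocyte markers (median -0.63). So did 8 of 10 pericyte markers (median -0.18), 7 of 10 endothelial markers (median -0.08) and 2 of 3 fibroblast markers (median -0.33). Of 2 tested neuron markers, 1 lay above 0 and 1 below. None of these was called by limma, with or without the block. The part of any of these cells in the fall of these genes was not tested. None of the 21 passed in all 3 fits with the block that left out a pair, and without pair 3 a single gene was called in the whole comparison. Mmp14, Src and Ets2 missed the threshold with TMM scaling and the block.

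**Figure D5:**
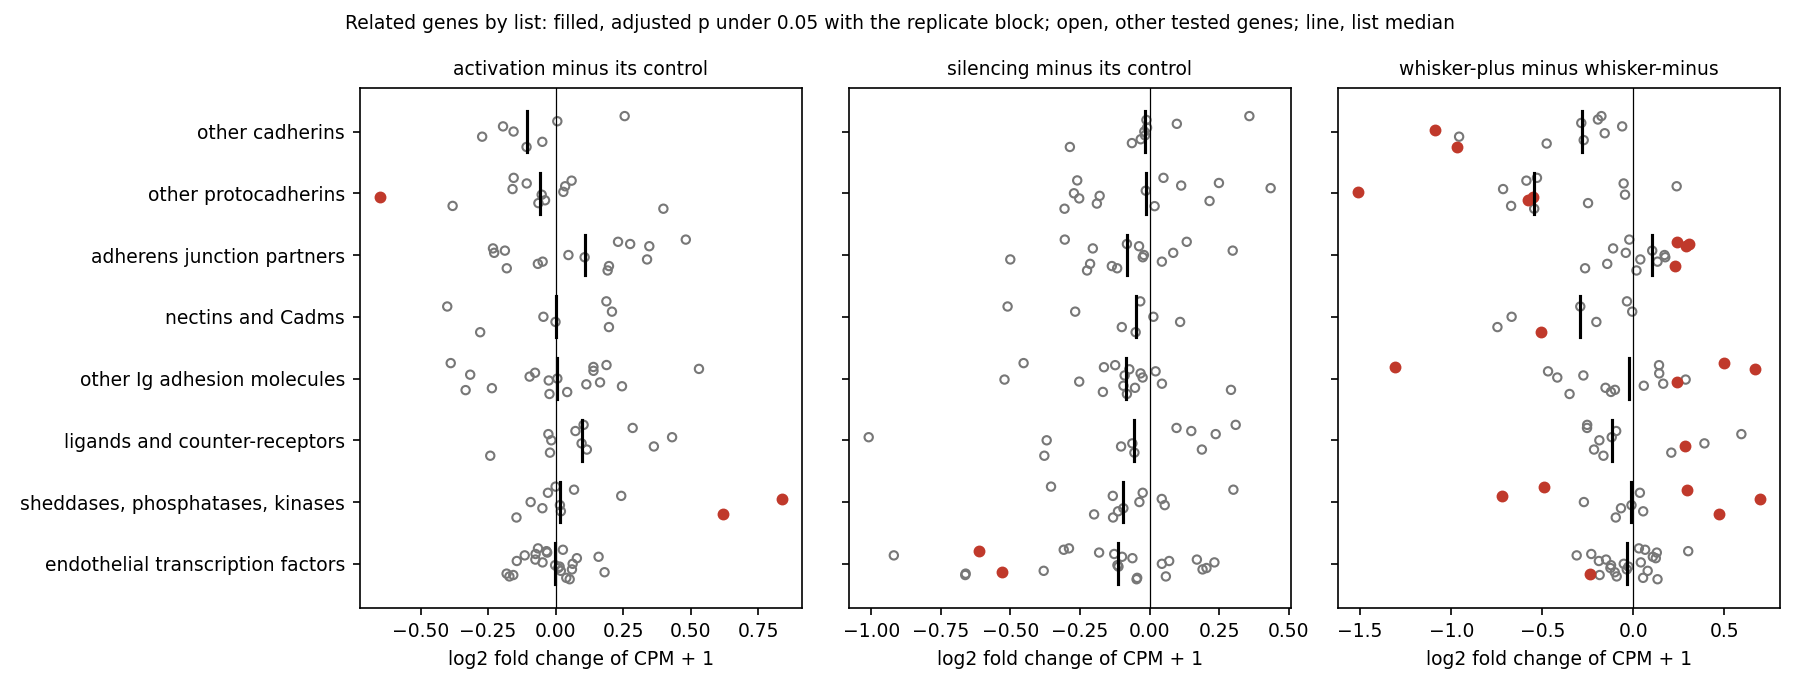
Log2 fold change of CPM + 1 (horizontal) of each tested related gene, by list (rows), for the activation, silencing and whisker comparisons; filled points passed an adjusted p of 0.05 with the replicate block, and black lines are list medians. Filled points number 3, 2 and 21 from left to right.

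The patterns of the 6 genes over the 22 libraries were then set beside those of 10271 other genes with a mean of at least 5 CPM, after the mean of each experiment was subtracted from log2(CPM + 1). These correlations describe libraries that share treatment groups and carry no test. Mcam was most like Csrp1 (r = 0.846), Marveld1 (0.831) and Dstn (0.831); Csrp1 is a LIM-domain protein of the actin cytoskeleton and Dstn severs actin filaments. For activation, Csrp1 had a log2 fold change of 0.72 ± 0.18 and Dstn 0.51 ± 0.13. Pvr was most like Swap70 (r = 0.880), Bcl6b (0.873) and Wwtr1 (0.872), which encodes the transcriptional coactivator TAZ. Pcdh12 was most like Pdia5 (r = 0.837), AA960436 (0.810) and Bpnt1 (0.781).

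Icam2 had the closest matches of all: Raly (r = 0.927), Acvrl1 (0.919), the endothelial BMP receptor ALK1, and Fxyd5 (0.897). Among the genes most like Cdh5 were Vac14 (r = 0.873) and Smg5 (0.867). Pecam1 was most like Grk5 (r = 0.858), Eif3b (0.854) and Tspan5 (0.828). Among the 6 genes themselves, the r of Cdh5 with Icam2 was 0.644 on this scale and 0.70 after group means were subtracted instead. That of Mcam with Pvr was 0.455 and 0.041 on these scales, so little of it remained within groups.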

How the data were processed

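RNA of CD31-sorted brain endothelial cells was sequenced in paired-end reads on a HiSeq4000, per the labels' protocols. Per the file headers, the authors deposited CPM values for 37991 genes in 22 libraries beside log2 fold changes of their own. HTSeq 0.6.1, SAMtools 0.1.19, DESeq2, Bowtie2 2.2.1, TopHat2 2.0.11 and build mm9 are named, without roles, per the submitters' processing notes. Settings of the read counting, strand included: not given in the sources used here. This touches Mcam, whose exons share 17 bases with Gm10687 on the other strand in GENCODE M21. In every library 100.0% of CPM values were whole multiples of what 1 read is worth, within 0.01 read, which gave back the whole reads. A library's total set its CPM, so a few abundant genes can shift all others; TMM scaling was tried for that reason. Intervals and precision rest on replicate spread, and low genes such as Pcdh12 (99 reads at least) carry more counting error.

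Groups and replicate numbers came from the sample titles. Whether samples of a group came from separate animals is not said beyond the word biological, so p-values measure the spread between these samples. Genes reaching 1 CPM in a number of libraries equal to the smaller group's size were fitted with limma 3.58.1 (R 4.3.3, mean-variance trend) on log2(CPM + 1), a scale that understates changes of low genes. P-values were adjusted (Benjamini-Hochberg) over all genes tested, with a threshold of 0.05. The activation and silencing effects were compared in 1 fit of the 16 libraries, which share no controls. Over all genes tested, log2 fold changes had a median of -0.01 (activation), -0.07 (silencing), -0.07 (whisker) and 0.06 (activation minus silencing). The scripts were tested on simulated data. Alternatives were a pseudocount of 0.1, no filter, TMM scaling, edgeR 4.0.16 (quasi-likelihood) and DESeq2 1.42.0 on the whole reads, the replicate number as a block, and leaving out each library. On the whole reads edgeR and DESeq2 called 2 and 371 genes in the activation comparison, 24 and 462 in silencing, 0 and 406 in whisker, and 295 and 760 in activation minus silencing. TMM scaling with the block, and the block without each pair, were added after seeing the data.

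No label says what a replicate number stands for. After group means were subtracted, same-numbered libraries correlated at 0.28 to 0.46 (activation), 0.14 to 0.60 (silencing) and 0.46 to 0.62 (whisker), so the numbers were taken as pairing the samples. SEs and adjusted p-values of the 6 genes come from the planned main fit without the block, unless the block is named. The 6 genes and all lists were chosen with earlier results of these data known. The text names the 6 genes, each list gene that passed with or without the block, and for each of the 6 the 3 genes of highest r, except 1 that is not reported here; partners and factors given with values that did not pass were added after their values were seen. Cd47 and Pcdh15 share a symbol between entries and were left out, and Pcdh21 was not found under that name. Lengths per kilobase are exon unions from GENCODE M21 (GRCm38), another build than mm9, so no gene coordinates are given from it.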

Additional observations from a re-analysis of the deposited data

Results flagged for a closer look

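Mcam in silencing library 4 read 46.88 CPM, against 58.69 to 61.02 CPM in the other 3 silencing libraries, a gap that took most of the group's range. Of 24 groups of 4 libraries examined in this way 1 was singled out, and chance singles out about 1 in 20.

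Pvr, picked for its changes with activity, had a log2 fold change of -0.62 for silencing and of 0.30 for whisker. Every silencing library lay below every silencing control, as for 7.30% of all genes tested. Every whisker-plus library lay above every whisker-minus library, as for 5.65% of all genes tested. That gap was narrow, with the lowest whisker-plus library at 91.73 CPM and the highest whisker-minus library at 90.28 CPM. The difference between the silencing and whisker effects was not tested.

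The activation effect of Icam2 exceeded its silencing effect by 0.89 ± 0.22 on the log2 scale (limma adjusted p = 0.0472), where 2.31% of all genes passed. The difference passed in only 9 of 31 alternatives and missed the threshold with no filter, with TMM scaling and with edgeR. All 4 pairs were higher with activation, as for 13.1% of all genes tested, and 3 of 4 were lower with silencing.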

How the results depend on the processing

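Activation called 18 genes: 234 with the replicate block, 137 with TMM scaling and the block, 6 with a pseudocount of 0.1, 0 with no filter, 0 with TMM scaling, 2 with edgeR, 371 with DESeq2 and 0 to 50 with a library or pair left out. Silencing called 23: 136 with the replicate block, 134 with TMM scaling and the block, 14 with the pseudocount, 7 with no filter, 35 with TMM scaling, 462 with DESeq2 and 0 to 2399 with a library or pair left out, 2399 being without pair 2. Whisker called 0: 1097 with the replicate block, 848 with TMM scaling and the block, 406 with DESeq2 and 0 to 2381 with a library or pair left out, 2381 being without pair 1. Activation minus silencing called 311: 855 with the replicate block, 839 with TMM scaling and the block, 111 with no filter, 760 with DESeq2 and 85 to 1392 with a library or pair left out, 1392 being without silencing pair 2.

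Leaving out libraries or pairs gave -0.0326 to 0.0437 for Cdh5 in activation, 0.22 to 0.69 for Pcdh12 in activation and -0.67 to -0.38 for Icam2 in silencing. For whisker it gave -0.0945 to 0.0248 for Cdh5, -0.11 to 0.18 for Icam2, -0.31 to 0.48 for Mcam, -0.995 to -0.25 for Pcdh12 and 0.17 to 0.43 for Pvr. Cdh5 in whisker read 0.0287 with TMM scaling, with or without the block, 0.0265 with edgeR and 0.033 with DESeq2, and Mcam in whisker read -0.0025 with edgeR and -0.0004 with DESeq2. The Icam2 difference was 0.89 with no filter, 0.84 with TMM scaling, 0.86 with edgeR and 0.77 to 1.07 with a library or pair left out. The causes were not tested. The replicate block alone changed no call of Cdh5, Pecam1 or Icam2. With the block, the limma adjusted p of Icam2 was 0.112 for activation, 0.160 for silencing and 0.0324 for activation minus silencing. SEs of the 6 genes were smaller with the block. That of Mcam was 0.10 against 0.18 without it in activation, and 0.13 against 0.37 in whisker. That of Pvr in activation was 0.08 against 0.20, and that of Pcdh12 in silencing 0.13 against 0.30. For the 6 genes, 458 values under alternatives kept their direction and side of the threshold or, with no test, moved by less than the spread between replicates. Of the rest, 22 changed direction, 22 lost the threshold, 2 gained it and 6 moved by more than that spread. Depth limits Pcdh12 most, with 99 to 971 reads per library.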
